A study of Homo sapiens with 6 samples.

Results

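The pyruvate dehydrogenase complex and its kinases and phosphatases were examined in HCT-116 cells, an established human colorectal carcinoma line, after transfection with a GapmeR against the lncRNA CASC9. The set held 10 of the 27918 genes and loci of the deposited table: the complex subunits PDHA1, PDHB, DLAT and PDHX, the kinases PDK1, PDK2 and PDK3, and the phosphatase subunits PDP1, PDP2 and PDPR. The members were chosen by their place in the pathway, after PDP1 had been seen among the largest differences of this same comparison. PDP1 ranked 48 of 16028 genes tested by its log2 difference. The values of the members are therefore given as a description, with no test, and tests are kept for other genes of the pathway.

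RNA-seq was performed on 6 libraries of poly(A) RNA. In 3 of them the cells had received the control GapmeR (GapNC), and in the other 3 the CASC9 GapmeR (GapC9). GapmeRs are antisense oligonucleotides in which modified ends flank a DNA stretch, and they direct RNase H to cut the RNA they pair with. A single GapmeR design stood for CASC9 silencing, all cells came from the HCT-116 line, and no untransfected cells were sequenced. The sample records do not say whether the 3 libraries of a group came from separate cultures, so the spread between them may be technical.

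Pyruvate dehydrogenase sits in the mitochondrial matrix and turns pyruvate, the end product of glycolysis, into acetyl-CoA for the TCA cycle. PDHA1 and PDHB form the E1 enzyme that decarboxylates pyruvate, DLAT is the E2 acetyltransferase at the core, and PDHX anchors the E3 enzyme, DLD, to that core. The kinases phosphorylate the E1 subunit PDHA1 and switch the complex off, and the phosphatases remove the phosphate and switch it on again. PDP1 and PDP2 are the catalytic phosphatase subunits, and PDPR is a regulatory subunit of the phosphatase. High kinase activity is a known way in which cancer cells hold pyruvate back from the mitochondria.

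Directions in these data rest on the sample labels, since the targeted RNA was hardly measured. In a separate RT-qPCR assay, the study reports a lower CASC9 level in this cell line after transfection with the CASC9 GapmeR. CASC9 stood at 0, 0.0108 and 0 FPKM (a fragment count scaled to the length of the transcript and to all mapped fragments of the library) in GapNC and at 0.0528, 0.107 and 0 FPKM in the libraries labelled GapC9, so its level was not lower in them. Depth was estimated at 22.8 to 24.4 M (mega) fragments a library, taking the most frequent step among low values as 1 fragment. GapNC replicate 1 stood apart: across 10117 genes its deviation from the mean of the libraries correlated with the GC content of the gene (Spearman rho = 0.618), against −0.384 to 0.0216 in the other 5. The libraries expressed the epithelial markers EPCAM, KRT8, KRT18, KRT19 and CDH1 (VIL1 was under 0.05 FPKM), with a sum over the 6 markers of 1004 to 1399 FPKM in GapNC and 993 to 1257 FPKM in GapC9. Of the markers of other cell types, CD68 at 49.8 to 55.7 FPKM made up nearly all of the immune sum, and COL3A1 (3.03 to 4.13 FPKM) and COL1A1 (1.06 to 1.54 FPKM) nearly all of the fibroblast sum. PTPRC, CD3E, COL1A2 and the 4 endothelial markers were all under 0.1 FPKM in every library, DCN and LUM had no row, and the ranges of the sums in the 2 groups overlapped for the immune, fibroblast and endothelial lists.

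RefSeq (GRCh38.p14) gave 14 promoter windows of 300 bases, each spanning an annotated start, for 9 of the 10 members. PDP1 had no entry. The windows were searched on both strands for ACGTG, the core that hypoxia-inducible factor (HIF) recognizes, CACGTG, the E-box, which contains ACGTG on both strands, CCGGAAG, an ETS site, and CCAAT. The motifs were chosen after the expression values were known. ACGTG occurred in 8 of the 14 windows, against 21.4% of all 35116 promoter windows. By gene it occurred in 8 of the 9, some of which have several windows, and no share by gene was computed over all promoters. CACGTG occurred in 4 windows (7.26% of all), CCAAT in 8 (34.6% of all) and CCGGAAG in 0 (10.3% of all). A match of letters is a description of the window, not a site in use.

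The windows of the kinases and of PDHB are shown, because PDK2, PDK3 and PDHB are the 3 members that lay lower in every GapC9 library, and PDK1 is the family member best known as a HIF target. Each is written 5′ to 3′ on the strand of its gene, with ACGTG or its complement CACGT in capitals. They lie at chr2:172555840-172556139 (PDK1, plus strand), chr17:50095101-50095400 (PDK2, plus strand, the middle one of its 3 windows), chrX:24465036-24465335 (PDK3, plus strand) and chr3:58433783-58434082 (PDHB, minus strand).
PDK1: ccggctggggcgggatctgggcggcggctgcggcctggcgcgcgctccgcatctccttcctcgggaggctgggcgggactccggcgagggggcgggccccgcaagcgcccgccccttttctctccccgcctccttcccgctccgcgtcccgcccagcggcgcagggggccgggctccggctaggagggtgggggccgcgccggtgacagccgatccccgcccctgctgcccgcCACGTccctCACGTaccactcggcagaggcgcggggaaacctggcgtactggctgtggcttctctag
PDK2: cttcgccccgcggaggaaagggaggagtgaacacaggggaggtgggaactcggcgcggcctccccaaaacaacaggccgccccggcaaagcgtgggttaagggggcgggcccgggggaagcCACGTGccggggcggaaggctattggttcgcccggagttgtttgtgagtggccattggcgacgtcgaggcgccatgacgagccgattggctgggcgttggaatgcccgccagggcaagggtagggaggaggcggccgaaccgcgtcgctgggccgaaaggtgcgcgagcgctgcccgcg
PDK3: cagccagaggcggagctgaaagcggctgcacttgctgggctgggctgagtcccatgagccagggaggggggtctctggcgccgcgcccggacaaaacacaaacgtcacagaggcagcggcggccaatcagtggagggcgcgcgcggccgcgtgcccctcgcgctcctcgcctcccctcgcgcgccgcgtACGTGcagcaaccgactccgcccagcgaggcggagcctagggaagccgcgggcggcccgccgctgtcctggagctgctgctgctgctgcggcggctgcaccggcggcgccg
PDHB: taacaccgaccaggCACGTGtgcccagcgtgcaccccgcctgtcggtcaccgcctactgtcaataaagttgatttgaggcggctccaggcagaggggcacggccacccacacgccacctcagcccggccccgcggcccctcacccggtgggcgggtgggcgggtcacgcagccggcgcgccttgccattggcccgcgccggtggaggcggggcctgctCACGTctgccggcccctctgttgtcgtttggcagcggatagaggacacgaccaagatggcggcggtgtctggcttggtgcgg
PDK1 held the core at 2 places within this window and none in its other one, which begins further upstream. The windows of PDK2 that are not shown held none. The core also occurred in windows of DLAT and PDHX, whose means were higher in GapC9, and of PDP2 and PDPR, whose means were lower. The match of PDK2 and the first match of PDHB are full E-boxes. GC content of these windows was 77.0% for PDK1, 74.3% for PDK3, 70.3% for PDHB and 69.7% for PDK2.

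Across the 10 genes, the group means of PDP1 lay furthest apart, and most of the other differences were below 0. On the log2(FPKM + 0.1) scale, 3 members had a difference above 0 (PDP1, DLAT and PDHX) and 7 below, with a median of −0.24, beside a median of −0.0762 over all 16028 genes tested. All 10 members passed the filter on low values. With limma fitted across all genes and Benjamini-Hochberg adjustment, 1 of 10 members (PDP1) was called at an adjusted p under 0.05, where 6.99% of all genes tested were called (1.89% higher and 5.1% lower). That split over all genes, 303 higher and 817 lower, depended on the scaling, and was 357 higher and 563 lower with median scaling and 1089 higher and 1228 lower after GC correction. PDP1 was also the 1 member called where the group means differed by a factor of 2 or more with an unadjusted p under 0.05, a rule that called 6.42% of all genes. At the unadjusted p alone, 5 of 10 members were called, PDP1 and PDHX higher and PDK2, PDK3 and PDHB lower, where 25.9% of all genes were. The GapNC and GapC9 libraries did not overlap for those same 5 members, and for 34.2% of all genes. The members were chosen on this comparison, so nothing is read from these counts.

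**Figure D1:**
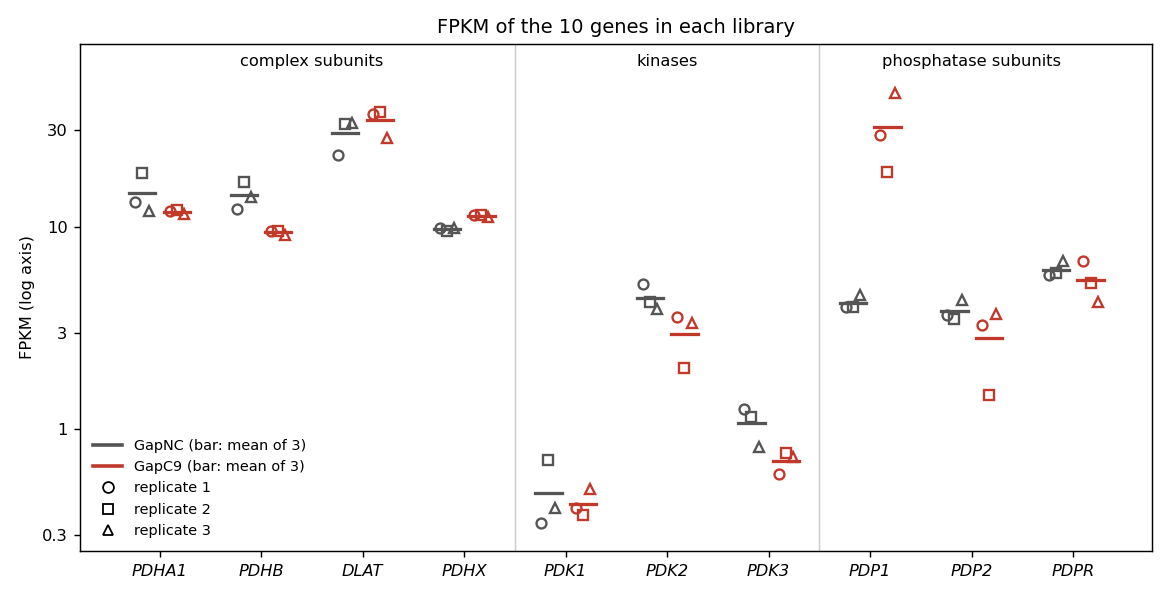
FPKM (log axis) of the 10 genes in each of the 6 libraries, GapNC in grey and GapC9 in red, with marker shapes for the replicates and bars for the means of 3. PDP1 lies between 4.01 and 4.62 FPKM in GapNC and between 18.6 and 45.9 FPKM in GapC9, while the other 9 genes differ far less between the groups.

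The phosphatase side held the largest difference. PDP1 (ENSG00000164951, plus strand of chromosome 8 of GRCh38, 93857807 to 93926066), the catalytic subunit that calcium stimulates, was at 4.02, 4.01 and 4.62 FPKM in GapNC replicates 1 to 3 and at 28.3, 18.6 and 45.9 FPKM in GapC9 replicates 1 to 3. Every GapC9 library lay above every GapNC library, and the lowest GapC9 value was 4.03 times the highest GapNC value. The means were 4.22 ± 0.349 and 31.0 ± 13.8 FPKM (SD, n = 3), a log2 difference of 2.75 (SE 0.32). With each library left out in turn the difference ran from 2.42 (without GapC9 replicate 3) to 3.07 (without GapC9 replicate 2). Its call at an adjusted p under 0.05 held without GapNC replicate 1 (2.72) and without GapC9 replicate 2. It was lost without GapNC replicate 2 (2.72), GapNC replicate 3 (2.82), GapC9 replicate 1 (2.77) or GapC9 replicate 3. PDP1 was picked on this same comparison, so these calls describe it and do not test it. In a bulk sample, more cells that express a gene and more RNA per cell cannot be told apart.

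The PDP1 row held all 10 of the transcripts that GENCODE 29 lists for the gene and no other gene. AC084346.2 and MIR378D2 overlap it on the opposite strand, and neither was listed in the table. No 50-base stretch of its transcripts was found in the transcripts of another gene.

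PDP2 (ENSG00000172840, chromosome 16, 66878589 to 66895754), the second catalytic subunit, did not share this difference. It was at 3.67, 3.49 and 4.36 FPKM in GapNC and at 3.27, 1.48 and 3.70 FPKM in GapC9. The groups overlapped, and GapC9 replicate 2 lay well below the other 5 libraries. The log2 difference was −0.53 (SE 0.35) with all libraries and −0.13 without GapC9 replicate 2.

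PDPR (ENSG00000090857, chromosome 16, 70113626 to 70162537), the regulatory subunit, was at 5.74, 5.93 and 6.76 FPKM in GapNC and at 6.77, 5.25 and 4.27 FPKM in GapC9. The groups overlapped, with the highest value and the lowest both in GapC9, and the log2 difference was −0.20 (SE 0.19). PDPR is the member whose sequence is least its own, since 38.8% of its 50-base stretches occur in other genes, first among them AC009060.1 (16.6%) and AC009053.1 (15.0%). AC009060.1 was listed at 0.0143 to 0.12 FPKM. A row that holds AC009053.1 and AC009120.2 together was listed at 1.28 to 1.29 FPKM in GapNC and 0.891 to 0.995 FPKM in GapC9. How the assembly shared reads among these copies cannot be seen in FPKM values, so the level of PDPR is uncertain.

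The makeup of the phosphatase mRNA differed accordingly between the groups. PDP1 made up 52.3, 53.5 and 51.5% of the summed FPKM of PDP1 and PDP2 in GapNC and 89.7, 92.6 and 92.6% in GapC9. The PDP1 to PDP2 ratio varied little between libraries of a group compared with the PDP1 level itself: it was 1.10, 1.15 and 1.06 in GapNC and 8.67, 12.6 and 12.4 in GapC9. Both genes were lowest in GapC9 replicate 2 and highest in GapC9 replicate 3 among the GapC9 libraries, whereas PDPR was lowest in GapC9 replicate 3. The ratio of PDP1 to PDPR was 0.700, 0.677 and 0.684 in GapNC and 4.18, 3.55 and 10.8 in GapC9.

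Among the kinase mRNAs, PDK2 was the main one in every library, and PDK3 and PDK1 were the least abundant members of the set by mean FPKM. PDK2 (ENSG00000005882, chromosome 17, 50094737 to 50112152), a broadly expressed isoform, was at 5.18, 4.26 and 3.94 FPKM in GapNC and at 3.56, 1.996 and 3.33 FPKM in GapC9. All 3 GapC9 libraries lay below all 3 GapNC libraries, with a log2 difference of −0.61 (SE 0.25). It has the highest GC content of the 10 genes (59.8%), its highest value was in GapNC replicate 1, and the difference was −0.34 after a GC correction of each library, −0.50 without GapNC replicate 1 and −0.36 without GapC9 replicate 2. In addition, 37.1% of its 50-base stretches are shared with SAMD14, which overlaps it on the opposite strand. SAMD14 was at 0.113 to 0.371 FPKM, and without knowing whether strand was used the reads of the 2 genes cannot be told apart.

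PDK3 (ENSG00000067992, chromosome X, 24465221 to 24541862), a kinase isoform that is little inhibited by pyruvate, was at 1.26, 1.15 and 0.811 FPKM in GapNC and at 0.599, 0.762 and 0.731 FPKM in GapC9. The groups did not overlap, and the gap between them was small, the highest GapC9 value being 0.939 times the lowest GapNC value. The log2 difference was −0.54 (SE 0.20) and lay between −0.71 and −0.43 with each library left out. It was −0.28 with a pseudocount of 1 FPKM, a pseudocount larger than the level of the gene in all 3 GapC9 libraries.

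PDK1 (ENSG00000152256, chromosome 2, 172555373 to 172608669), the isoform that HIF induces in hypoxia, was the least abundant member. It was at 0.343, 0.703 and 0.406 FPKM in GapNC and at 0.406, 0.376 and 0.504 FPKM in GapC9. The groups overlapped and the sign of the difference hung on 1 library: it was −0.10 (SE 0.27) with all libraries and 0.15 without GapNC replicate 2. PDK4, the isoform induced by fasting, was at 0.0927, 0.118 and 0.224 FPKM in GapNC and at 0.187, 0.298 and 0.231 FPKM in GapC9, with a log2 difference of 0.49 (SE 0.28, adjusted p = 0.333 in limma).

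**Figure D2:**
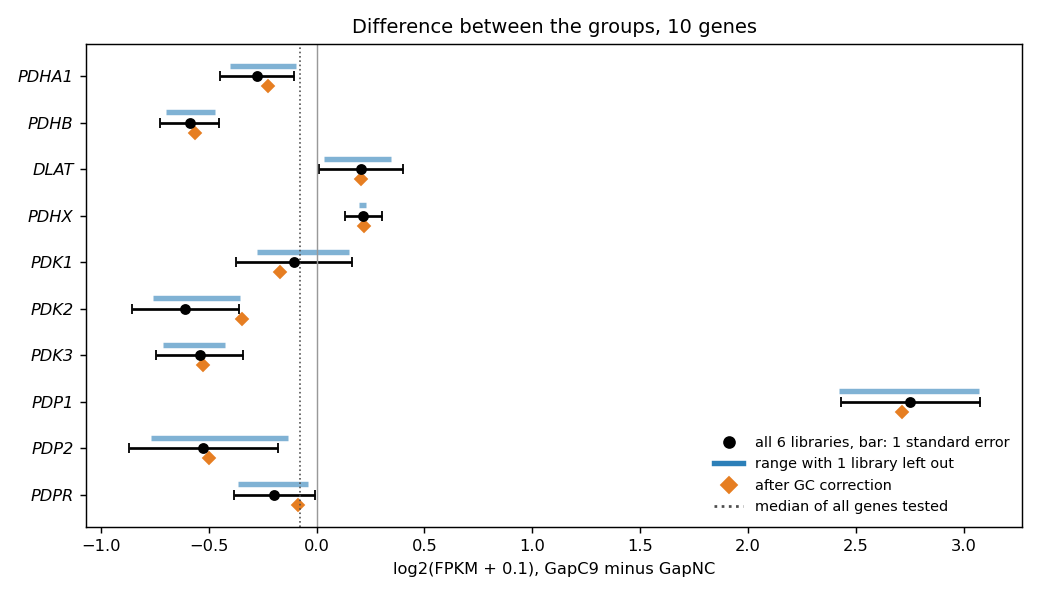
Differences between the groups on the log2(FPKM + 0.1) scale (GapC9 minus GapNC) for the 10 genes, with 1 standard error, the range with 1 library left out (blue) and the value after GC correction (orange), and a dotted line at the median of all genes tested. PDP1 stands at 2.75, PDHB, PDK2, PDK3 and PDP2 lie between −0.61 and −0.53, and the range of PDK1 spans 0.

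Summed over PDK1, PDK2 and PDK3, kinase mRNA was 6.78, 6.11 and 5.16 FPKM in GapNC and 4.57, 3.13 and 4.56 FPKM in GapC9, with no overlap. PDK2 accounted for 63.7 to 78.0% of this sum, and its share overlapped between the groups. The sum of PDP1 and PDP2 was 7.69, 7.50 and 8.98 FPKM in GapNC and 31.6, 20.1 and 49.6 FPKM in GapC9. The ratio of phosphatase to kinase mRNA in the same library was 1.13, 1.23 and 1.74 in GapNC and 6.92, 6.42 and 10.9 in GapC9, means of 1.37 ± 0.327 and 8.07 ± 2.45 (SD, n = 3). The mean ratio was 5.90 times higher in GapC9, and 4.88 to 6.84 times higher with each library left out. Most of this lay in PDP1, since the ratio of PDP2 to the kinase sum was 0.541, 0.571 and 0.845 in GapNC and 0.715, 0.473 and 0.810 in GapC9, which overlapped. A ratio within a library is not touched by the scaling of that library. A GC bias of a library can still touch it, since GC content was 59.8% for PDK2 and 41.0% for PDP1. The sums and the ratio were not computed after GC correction. These are mRNA levels, and neither protein nor the phosphorylation of PDHA1 was measured in these libraries.

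**Figure D3:**
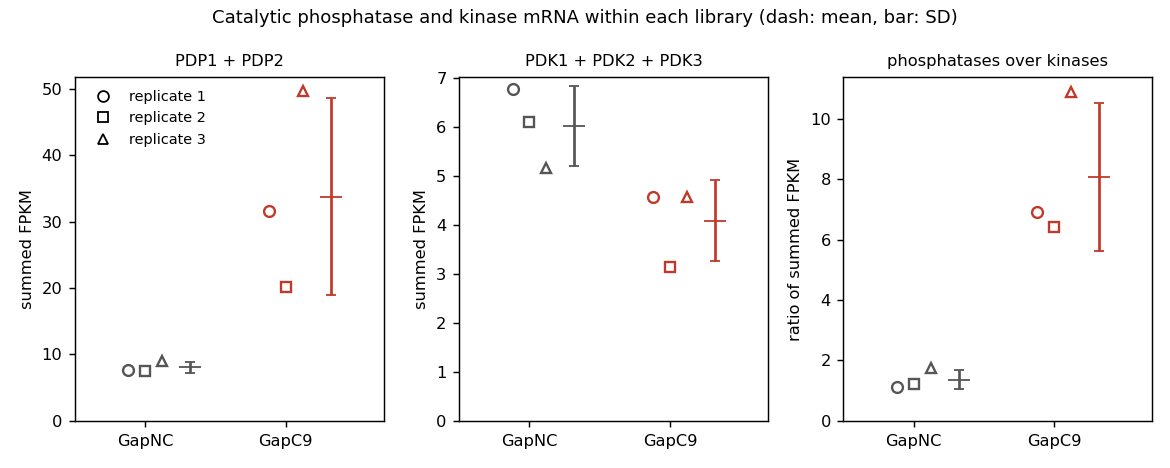
Summed FPKM of PDP1 and PDP2 (left), of PDK1, PDK2 and PDK3 (middle), and their ratio (right) in each library, with the mean (dash) and SD (bar) of each group of 3. The ratio lies between 1.13 and 1.74 in GapNC and between 6.42 and 10.9 in GapC9.

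The subunits of the complex differed less between the groups, and not all in 1 direction. PDHB (ENSG00000168291, minus strand of chromosome 3, 58427630 to 58433857), the beta subunit of E1, was at 12.2, 16.7 and 14.0 FPKM in GapNC and at 9.49, 9.58 and 9.14 FPKM in GapC9. All GapC9 libraries lay below all GapNC libraries and close to each other. The log2 difference was −0.59 (SE 0.14), from −0.70 to −0.47 with each library left out, and −0.56 after GC correction. PDHB was not called with all libraries at the main settings, and was called without GapNC replicate 1 (−0.70), after GC correction and with a filter at 1 FPKM. As a member of the chosen set, it is described and not tested by these calls.

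PDHA1 (ENSG00000131828, chromosome X, 19343893 to 19361705), the alpha subunit of E1 and the target of the kinases, was at 13.3, 18.5 and 12.02 FPKM in GapNC and at 11.9, 12.1 and 11.5 FPKM in GapC9. The groups overlapped, and the high GapNC mean came largely from replicate 2. The log2 difference was −0.28 (SE 0.17) and −0.09 without that library. MAP3K15, which overlaps PDHA1, shares 17.6% of its 50-base stretches and was at 0.423 to 0.640 FPKM. The 2 subunits of E1 stood in a ratio of 1.09, 1.11 and 0.856 (PDHA1 over PDHB) in GapNC and of 1.25, 1.26 and 1.26 in GapC9, with no overlap.

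PDHX (ENSG00000110435, chromosome 11, 34915829 to 35020591), the E3-binding protein, was at 9.88, 9.48 and 9.86 FPKM in GapNC and at 11.5, 11.4 and 11.1 FPKM in GapC9. It was higher in all 3 GapC9 libraries, by 0.22 on the log2 scale (SE 0.086). The SD of its log2 values was 0.0334 in GapNC and 0.0242 in GapC9. Of the 10229 genes whose mean reached 1 FPKM, about 97.5% and 97.0% varied more within those groups. A small difference was thus larger than the spread between the libraries. APIP, whose start overlaps that of PDHX head to head and which shares 5.58% of the 50-base stretches, was at 4.45 to 5.83 FPKM (log2 difference 0.06, adjusted p = 0.833 in limma). The ratio of PDHB to PDHX was 1.23, 1.76 and 1.42 in GapNC and 0.829, 0.837 and 0.823 in GapC9.

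DLAT (ENSG00000150768, chromosome 11, 112024814 to 112064390), the E2 core, was the most abundant member by its mean, at 22.7, 32.3 and 32.5 FPKM in GapNC and at 36.2, 37.1 and 27.4 FPKM in GapC9. The groups overlapped, and the difference of 0.21 (SE 0.19) rested on GapNC replicate 1, without which it was 0.04. DLD, the E3 enzyme that the complex shares with other dehydrogenases, was at 15.5, 18.1 and 19.4 FPKM in GapNC and at 16.9, 18.7 and 16.7 FPKM in GapC9 (log2 difference −0.02, SE 0.12, adjusted p = 0.944 in limma). PDHA2, the testis form of the alpha subunit, had no row in the table.

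In level the members ran from scarce to abundant mRNAs. By the mean FPKM over the 6 libraries the order was DLAT (31.4), PDP1 (17.6), PDHA1 (13.2), PDHB (11.9), PDHX (10.5), PDPR (5.78), PDK2 (3.71), PDP2 (3.33), PDK3 (0.884) and PDK1 (0.456). Only between PDHX and PDPR and between PDP2 and PDK3 did the values of neighbors in this order not overlap over all 6 libraries. DLAT lay above 94.2% of the genes tested and PDK1 above 25.1%. The place of PDP1 depended on the group: it ranked 7 of 10 in GapNC (4.22 FPKM), just below PDK2 (4.46 FPKM) and above PDP2 (3.84 FPKM), and 2 of 10 in GapC9, below DLAT (33.5 FPKM). The other 9 kept their order among themselves in both groups, except that PDHX (11.3 FPKM) lay above PDHB (9.40 FPKM) in GapC9.

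The spread between libraries also differed among the members. In GapC9 the SD of log2 values was 0.0349 for PDHA1 and 0.0350 for PDHB. Of the 10229 genes whose mean reached 1 FPKM, 94.2% and 94.1% varied more. The SD was 0.649 for PDP1 and 0.685 for PDP2, where 8.70% and 8.17% of those genes varied more, beside a median of 0.151 over them. In GapNC the SD of PDP1 was 0.114, below the median of 0.229 over the same genes, and the widest spread among the members was that of PDK1 (0.450).

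To see the set in its wider pathway, 6 lists of other genes were examined with limma: 89 of 92 listed loci were tested, 3 were called higher and 3 lower at an adjusted p under 0.05, and the median log2 difference was 0.02. This is 6 of 89 loci, beside 6.99% of all genes. At the unadjusted p, 6 were higher and 13 lower, beside 25.9% of all genes in either direction. The lists were drawn up with earlier results of these data known.

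Among 15 genes for E3, PDK4, lipoate and iron-sulfur assembly and thiamine supply, which provide the cofactors of the complex, 0 were called in either direction (0 higher and 1 lower at the unadjusted p), with a median of 0.09. Of 15 TCA cycle genes, which handle the acetyl-CoA that the complex makes, 0 were called as well (0 higher and 1 lower at the unadjusted p), with a median of 0.11. These lists hold no call at this number of libraries, which does not show that their genes were level.

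Of 14 genes tested that supply pyruvate or use it in other ways, 1 was called. PC, pyruvate carboxylase, which turns pyruvate into oxaloacetate and so competes with pyruvate dehydrogenase for the same substrate, was at 3.33, 2.26 and 1.87 FPKM in GapNC and at 1.15, 0.885 and 1.05 FPKM in GapC9. It fell by 1.17 on the log2 scale (SE 0.23, adjusted p = 0.0438 in limma). Its highest value was in GapNC replicate 1, without which the difference was −0.94 (adjusted p = 0.0558 in limma). The adjusted p was 0.0558 to 0.149 with each library left out.

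Of 10 genes of the other 2-oxoacid dehydrogenase complexes, 1 was called lower, and the median was −0.25. At the unadjusted p, 4 were lower and 0 higher, where 25.9% of all genes were called in either direction. DLST, the E2 core of 2-oxoglutarate dehydrogenase and the counterpart of DLAT, was at 24.7, 20.9 and 20.9 FPKM in GapNC and at 15.7, 13.6 and 13.4 FPKM in GapC9. It fell by 0.63 (SE 0.12, adjusted p = 0.0379 in limma), with adjusted p from 0.0554 to 0.137 with each library left out.

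PDP1 and PDP2 belong to the PPM family of metal-dependent phosphatases, and of 15 other members tested 1 was called higher and 0 lower. PPM1D, the p53-induced phosphatase Wip1, was at 7.29, 7.30 and 7.33 FPKM in GapNC and at 13.3, 13.7 and 16.0 FPKM in GapC9. It rose by 0.96 (SE 0.11, adjusted p = 0.0166 in limma), and passed the threshold in 1 of 6 fits with a library left out, that without GapNC replicate 1 (adjusted p = 0.0303 in limma). By the fold and unadjusted p, 3 were called lower: PPM1H (−1.17, SE 0.45), PPM1M (−1.04, SE 0.23) and PHLPP1 (−0.90, SE 0.23), with adjusted p of 0.173, 0.0509 and 0.0759 in limma. That rule called 6.42% of all genes in either direction. PPM1H was at 0.630 FPKM in GapC9 replicate 1 and at 2.03 and 2.15 FPKM in the others, and without that library its difference was −0.64.

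Of 20 genes of the HIF pathway, which induces PDK1 in hypoxia, 2 were called higher and 1 lower, with a median of 0.04. P4HA1, a collagen prolyl hydroxylase whose row also holds the pseudogene RPL17P50, was at 3.52, 4.36 and 4.28 FPKM in GapNC and at 7.68, 7.96 and 8.56 FPKM in GapC9. It rose by 0.98 (SE 0.12, adjusted p = 0.0192 in limma). ANKRD37, a small HIF target, was at 0.789, 0.901 and 0.899 FPKM in GapNC and at 1.48, 1.48 and 1.28 FPKM in GapC9, and it rose by 0.65 (SE 0.13, adjusted p = 0.0454 in limma). HK2, the hexokinase that opens glycolysis in many tumors, was at 21.8, 18.7 and 20.0 FPKM in GapNC and at 14.9, 14.7 and 14.3 FPKM in GapC9, and it fell by 0.46 (SE 0.097, adjusted p = 0.0474 in limma). With each library left out P4HA1 passed in 1 of 6 fits, without GapNC replicate 1, and ANKRD37 and HK2 in 0 of 6.

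**Figure D4:**
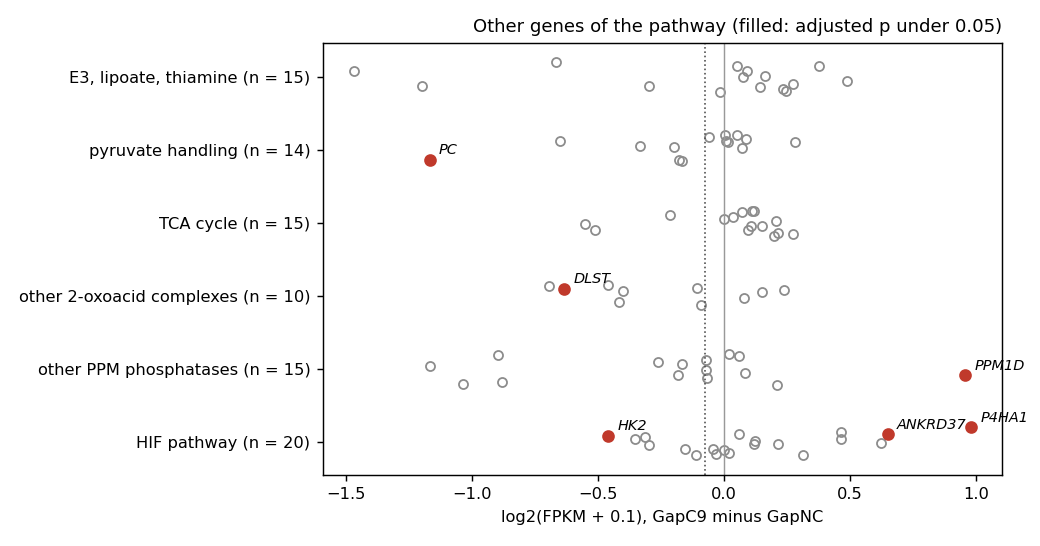
Log2 differences (GapC9 minus GapNC, log2(FPKM + 0.1) scale) of the other genes of the pathway by list, with filled points for an adjusted p under 0.05 in limma and a dotted line at the median of all genes tested. The 6 filled points are PC, DLST and HK2 below 0 and PPM1D, ANKRD37 and P4HA1 above 0.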

How the data were processed

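RNA-seq had been performed on 3 GapNC and 3 GapC9 libraries. The authors deposited FPKM values computed with StringTie, in 1 table of 27918 genes and loci. The submitters' processing notes name HISAT2 2.0, StringTie 1.3.0 and Bowtie 0.12.2, and a mouse build that does not match the human Ensembl genes of the table. The study's text gives different harvest times, and it is not stated whether strand was used. FPKM scales fragments to transcript length and library depth, the assembly can join neighboring genes, and without counts no counting error or interval can be given. The edgeR test named by the authors needs counts and was not rerun.

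In R 4.3.3, limma 3.58.1 (lmFit, eBayes with a trend) was fitted once to the 6 libraries, on log2(FPKM + 0.1), for the 16028 rows whose mean reached 0.1 FPKM. P-values were adjusted by Benjamini-Hochberg over all these rows. Fold changes on this scale understate those of low genes. Called genes passed an adjusted p under 0.05. The thresholds of the study, a ratio of means of at least 2 or at most 0.5 with an unadjusted p under 0.05, were used beside it. The GC correction subtracted a lowess curve (span 0.3) from each library. The fit and the correction were tested on simulated data. Gene positions, transcripts and shared 50-base stretches came from GENCODE 29 on GRCh38, read in Python 3.11.15.

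The members, gene lists and tests were chosen with earlier results of these data known. The genes named are the 10 members, DLD, PDK4 and PDHA2, listed genes past either threshold, genes that overlap or share sequence with members, the 3 genes most correlated with PDP1, and its neighbors, and any gene chosen later is marked. Of the cell type markers, 1 is not reported here. The alternatives were pseudocounts of 1 and 0.01 FPKM, a filter at 1 FPKM and none, median scaling, quantile normalization, GC correction, no variance trend, a replicate block, and each library left out.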

Additional observations from a re-analysis of the deposited data

How the results depend on the processing

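Of 138 log2 differences of the members recomputed under the alternatives, 135 moved by less than the spread within groups and 3 moved by more: PDK3 with a pseudocount of 1 FPKM (−0.28), and PDHX with median scaling (0.31) and quantile normalization (0.28). A changed filter or a replicate block cannot alter these differences, so the values under those settings were bound to count among the 135. PDP1 was 2.42 to 3.07 with each library left out and 2.53 to 2.84 under the other alternatives. Median scaling and the GC correction moved the median of all genes from −0.0762 to 0.0051 and 0.0208. At an adjusted p under 0.05 in limma, 303 genes were higher and 817 lower. Without a filter these were 146 and 346, after GC correction 1089 and 1228, and with quantile normalization 347 and 516, so that the share of higher calls moved with the scaling (357 higher and 563 lower with median scaling). With each library left out they were 16 to 240 higher and 16 to 570 lower, the highest counts coming without GapNC replicate 1 and the lowest without GapC9 replicate 3 (16 and 16) and without GapNC replicate 2 (16 and 17). Of the other pathway genes, 3 were higher and 3 lower. After GC correction 9 were higher and 4 lower, without a filter or without the variance trend 0 were lower, and with quantile normalization 1 was lower. With each library left out 0 to 2 were higher and 0 to 1 lower. Of the members, 1 was higher, or 0 to 1 with each library left out. PDHB made 1 member lower with a filter at 1 FPKM, after GC correction and without GapNC replicate 1, and the count was 0 to 1 with each library left out. The members were chosen on this comparison, so their counts are no test. The ratio of phosphatase to kinase mRNA was 4.88 to 6.84 times higher with each library left out. By median FPKM, PDP1 ranked 3 and PDHA1 2, and without GapC9 replicate 3 PDP1 ranked 4. The causes of these shifts were not tested.

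Both groups are numbered 1 to 3, and the labels do not say what a number shares. Deviations of same-numbered libraries from their group means correlated at 0.097, 0.0398 and 0.0243 across genes. GapNC replicates 1 and 2 correlated best with their own number, and GapNC replicate 3 with GapC9 replicate 2 (0.0578). The remaining differently numbered correlations were −0.093 to −0.0045. All were weak, so the numbers were not taken as pairs, though these values do not exclude a pairing. With a replicate block in limma, 0 genes were higher and 0 lower at an adjusted p under 0.05 (1618 higher and 2952 lower at the unadjusted p), 0 other pathway genes were called in either direction (7 higher and 16 lower at the unadjusted p), and of the members 0 were higher and 0 lower. With 3 libraries a group and no counts, differences of the size of those of PDK1 or PDK4 could not be separated from the spread at these levels.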

Other observations

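PDP1 was set beside the genes around it and the genes that followed it across the libraries. Its annotated neighbors on the chromosome had far smaller differences. RBM12B was at 1.64 to 2.60 FPKM in GapNC and 1.31 to 3.36 FPKM in GapC9 (log2 difference −0.13, adjusted p = 0.853 in limma). TMEM67, a ciliary membrane protein, was at 1.44 to 2.03 and 1.05 to 1.35 FPKM (−0.40, adjusted p = 0.23 in limma). GEM, a small GTPase, was at 2.94, 3.20 and 3.46 FPKM in GapNC and at 4.15, 3.99 and 4.75 FPKM in GapC9 (0.41, adjusted p = 0.107 in limma), and its groups did not overlap. CDH17 was under 0.05 FPKM in every library.

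Among 10228 other genes whose mean reached 1 FPKM, ZNF697, a zinc finger gene, UBL3, a ubiquitin-like protein, and PMP22, a membrane protein of myelin and epithelia, had the highest Pearson correlation with PDP1 over the 6 libraries on the log2(FPKM + 0.1) scale (r = 0.998, 0.9959 and 0.9954). The 6 points are 2 groups of 3, and the genes share libraries and scaling, so this is a description. UBL3 was at 2.03, 2.17 and 2.29 FPKM in GapNC and at 4.08, 3.36 and 4.66 FPKM in GapC9. Like PDP1 it was lowest in GapC9 replicate 2 and highest in GapC9 replicate 3. ZNF697 (0.37) and PMP22 (0.30) followed the same order of the GapC9 libraries with far smaller log2 differences than the 2.75 of PDP1.

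BCKDK, chosen after its values were seen, is the kinase that switches off the branched-chain 2-oxoacid dehydrogenase as the PDK enzymes switch off pyruvate dehydrogenase. It was at 17.0, 12.1 and 10.3 FPKM in GapNC and at 8.68, 8.18 and 6.92 FPKM in GapC9, with a log2 difference of −0.70 (SE 0.21, adjusted p = 0.106 in limma) and no overlap of the groups. PPM1K, the phosphatase of that complex, was at 0.808, 0.802 and 0.692 FPKM in GapNC and at 0.408, 1.02 and 1.24 FPKM in GapC9, with a log2 difference of 0.08 (SE 0.38) and overlapping groups.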
